A study of Mus musculus with 12 samples.

Results

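The genes described here are the glutathione S-transferases (Gst), the UDP-glucuronosyltransferases (Ugt) and the sulfotransferases (Sult) measured in livers of refed mice. They were taken by name: every gene whose probe set carried a single symbol of the Gst classes alpha, kappa, mu, omega, pi, theta and zeta, of Ugt or of Sult. This gave 46 genes of the 19938 with a single symbol, namely 19 Gst, 11 Ugt and 16 Sult genes. The rule uses names only, and a gene with more than 1 probe set was represented by its brightest, which concerned Gstm3 alone.

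Livers of 6 wild-type (WT) animals were compared with livers of 6 animals that carry the LRH-1 K289R knock-in. LRH-1 is a nuclear receptor of the liver encoded by Nr5a2, and the mutation exchanges a lysine to which SUMO can be attached for an arginine. All 12 were males on C57BL/6J that had gone without food for 24 h and had then been fed again for 6 h, so every value below belongs to that state. The sources used here state neither the animals' age nor the number of mutated alleles. The labels call the arrays of a group biological replicates, and the comparison asks whether conjugation genes differ between the genotypes. Whole liver was used, so a smaller share of a cell type and less RNA per cell cannot be told apart.

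Phase II enzymes attach a polar group to a drug, a toxin, a hormone or a bile pigment, often after a cytochrome P450 has oxidised it, so that it can leave the cell. Gst enzymes join glutathione to electrophiles, Ugt enzymes transfer glucuronic acid from UDP-glucuronic acid, and Sult enzymes transfer sulfate from the donor PAPS. Hepatocytes are rich in many of them. Several members are controlled by the xenobiotic receptors CAR and PXR and by the stress sensor NRF2, and some differ between male and female mouse liver.

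The hepatocyte markers were bright on all arrays, with a summed intensity over 6 measured markers of 25860 to 27420 in WT and 25750 to 27730 in K289R. The sum hides the variation of Pck1, which was not called. Pck1 measured 2194 on WT 1, 314.4 to 689.1 on the other WT arrays and 845 to 1612 in K289R. A few arrays stood apart from the rest. The mean log2 intensity of 11 acute phase genes, which hepatocytes induce in inflammation, was 9.46 on WT 1 and 9.68 on WT 3, while the other WT arrays lay between 7.43 and 7.76 and K289R between 7.44 and 8.46. The summed intensity of 6 pancreatic acinar markers was 4232 on K289R 1 and 6577 on K289R 3, against 154.7 to 175.2 in WT. Of 7 skeletal muscle markers, the sum was 1704 on WT 1 and 726.6 on K289R 3, whereas the highest other array had 283.4.

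In this liver, 31 of the 46 genes had a mean log2 intensity of at least 5 (an intensity of 32), and 15 were dimmer. The brighter ones were 17 of the 19 Gst, 9 of the 11 Ugt and 5 of the 16 Sult genes. The median intensity over all probe sets was 26.8 to 29.2 on the 12 arrays, and below it signal was not told apart from background here. Intensities of different probe sets do not rank their transcripts by amount. The dim Sult genes included Sult1e1, the estrogen sulfotransferase, at 4.17 ± 0.47 (SD, n = 6) in WT, and Sult3a1, at 3.24 ± 0.20 (n = 6). Both are known to be low in male liver and were as dim in K289R (4.18 ± 0.37 and 3.23 ± 0.37, n = 6 each).

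**Figure D1:**
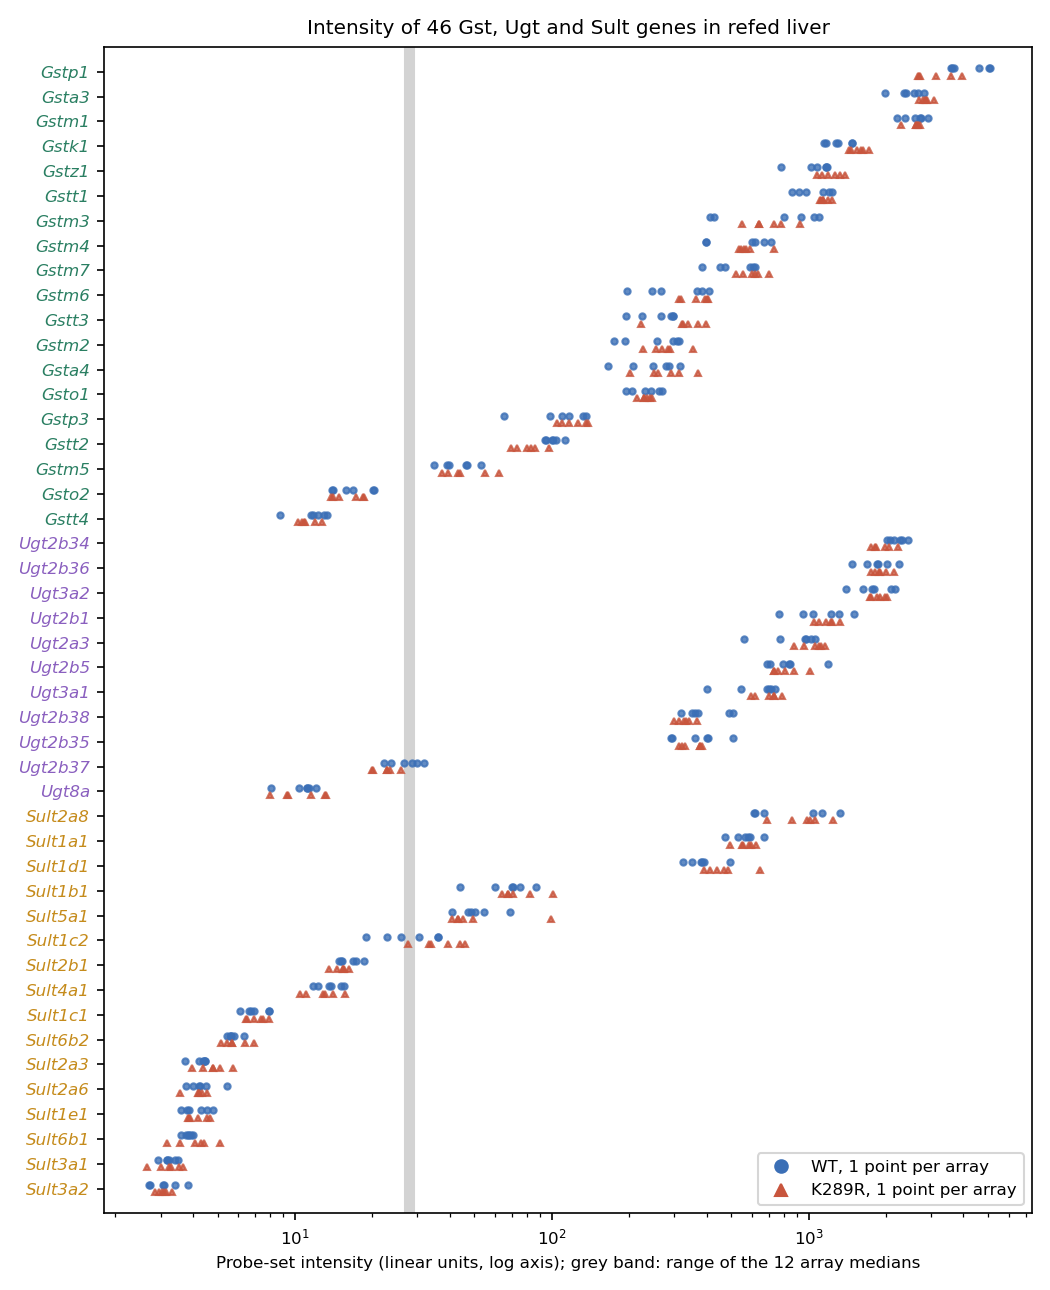
Probe-set intensity (log axis) of each of the 46 genes on the 12 arrays, with WT as circles, K289R as triangles and the range of the array medians as a grey band. Most Gst and Ugt genes lie to the right of the band and 10 of 16 Sult genes to its left, with Sult1c2 around it, and the groups overlap for every gene.

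Across the genome limma called 0.572% of genes at an adjusted p under 0.05 (0.481% higher and 0.0903% lower in K289R). Of the 46 conjugation genes 0 were called in either direction. The smallest adjusted p was 0.109, for Gstt2. For 0 of the 46 genes did the arrays of the groups separate without overlap, against 1.24% of all genes. At an unadjusted p under 0.05 there were 11 of the 46 genes (23.9%). Of these 6 were higher, beside 6.42% of all genes, and 5 lower, beside 5.61%. These 11 are described below as measured differences that did not pass. The share depends on brightness. In a fit of genes with a mean log2 of at least 5 alone, 16.1% had an unadjusted p under 0.05 in either direction. Of the 31 brighter members 5 were then higher and 4 lower. The 95% interval of the log2 difference stayed between -0.5 and 0.5 for 37 of the 46 genes and for 23 of the 31 brighter ones. For those 23, changes beyond 0.5 on the log2 scale lay outside it. The rest of the 37 were dim, and a narrow interval near background does not limit a change of the transcript.

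**Figure D2:**
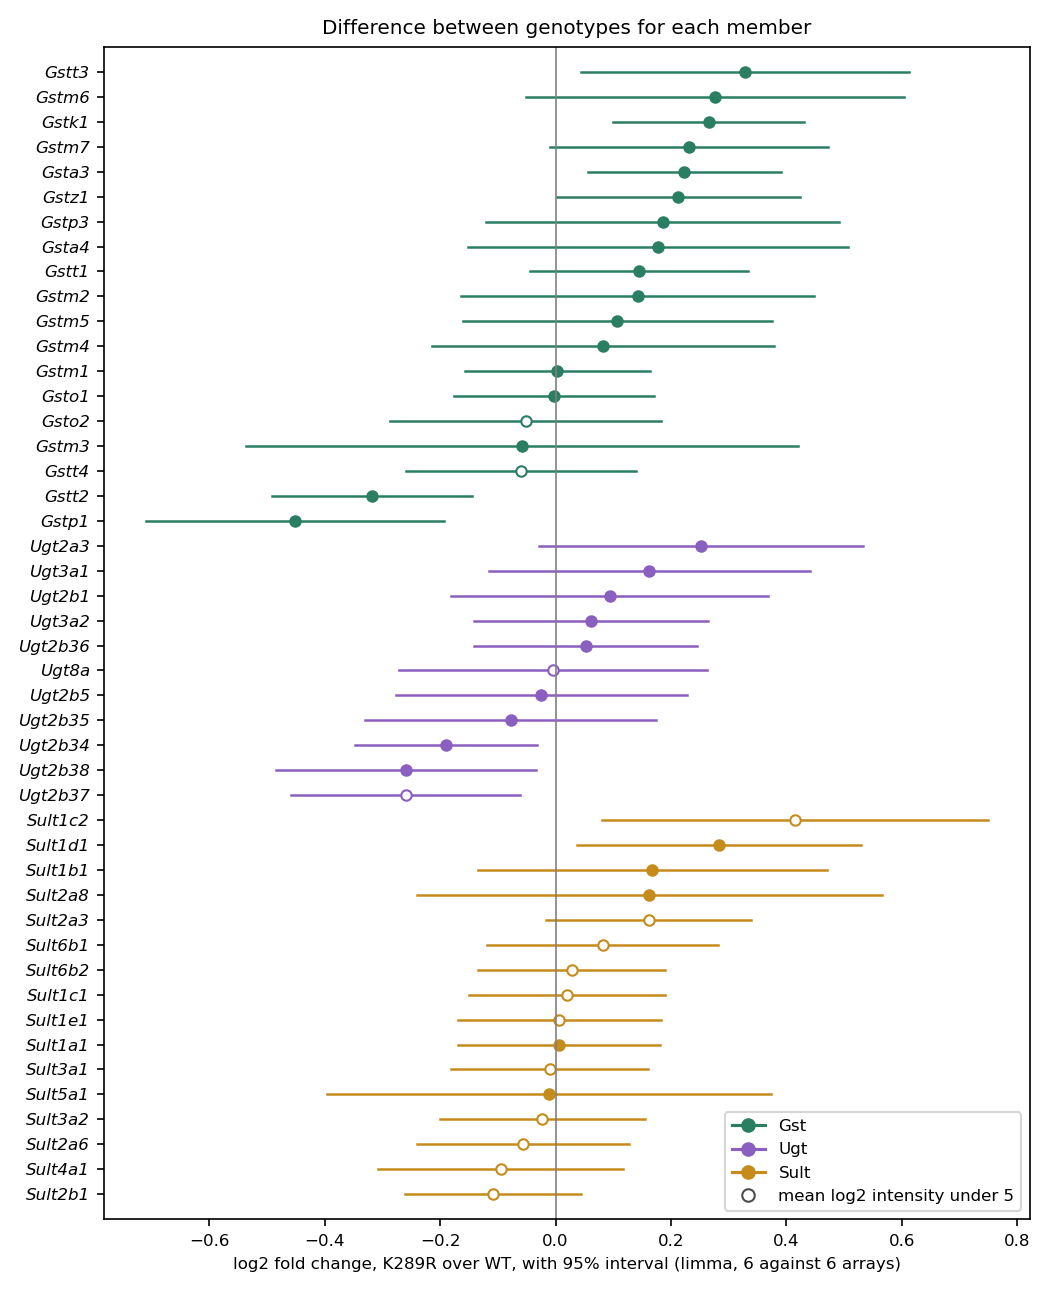
The log2 fold change of each gene, K289R over WT, as a point with its 95% interval from limma (6 against 6 arrays), ordered within Gst, Ugt and Sult; open points have a mean log2 intensity under 5. Point estimates run from -0.45 for Gstp1 to 0.41 for Sult1c2, and no gene passed at an adjusted p under 0.05.

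The pi class gave the lowest log2 difference of all 46 genes. Gstp1 encodes the pi-class transferase of hepatocytes, which is higher in male than in female mouse liver. In WT its intensity was lowest at 3562, had a median of 4146 and was highest at 5066, and in K289R these values were 2651, 2912 and 3943 (probe set 10464583). The 4 lowest of the 12 arrays, at 2651, 2690, 2706 and 3117, were K289R arrays, but K289R 2 and K289R 6, at 3588 and 3943, lay within the WT range. The log2 difference was -0.45 (95% interval -0.71 to -0.19, adjusted p = 0.130). It was -0.57 without WT 1 and 3 (adjusted p = 0.0850) and -0.41 without K289R 1 and 3 (adjusted p = 0.384). Gstp3, the other pi gene with a row of its own, had mean intensities of 109.7 ± 26.1 (WT) and 121.9 ± 13.5 (K289R; SD, n = 6 each), a log2 difference of 0.19 (adjusted p = 0.619). Its lowest value, 65.1, was on WT 1, and the other arrays of both groups lay between 98.1 and 138. The Gstp3 difference was -0.023 without WT 1 and 3, and without K289R 1 and 3 as well it was -0.11.

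The 250 bases before the annotated starts of both pi genes are shown because Gstp1 had the lowest difference of the 46 genes and both genes stand close together on chromosome 19. They lie at chr19:4037913-4038162 and chr19:4059448-4059697, both on the minus strand (RefSeq, GRCm38.p6). Both are written in lower case throughout because neither holds TGACNNNGC or CAAGGTCA, the only letters searched. Related forms of these motifs were not looked for.
Gstp1: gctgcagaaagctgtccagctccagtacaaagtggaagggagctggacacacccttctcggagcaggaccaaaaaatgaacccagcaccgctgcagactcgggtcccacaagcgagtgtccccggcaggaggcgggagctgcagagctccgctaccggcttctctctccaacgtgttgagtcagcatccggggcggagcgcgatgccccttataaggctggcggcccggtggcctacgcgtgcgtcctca
Gstp3: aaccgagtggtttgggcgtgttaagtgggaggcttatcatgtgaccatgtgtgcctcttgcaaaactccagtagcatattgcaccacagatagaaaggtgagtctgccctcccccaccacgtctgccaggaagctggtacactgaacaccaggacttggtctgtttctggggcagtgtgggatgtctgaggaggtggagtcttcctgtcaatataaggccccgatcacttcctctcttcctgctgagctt
In a global alignment these windows had 136 identical bases over 272 aligned positions (50.0%), whereas the windows of Gstp1 and of its copy Gstp2 had 207 over 265 (78.1%). Gstp2 has no row of its own in the table. Whether the Gstp1 probe set also reads transcripts of its copies was not tested.

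Theta-class genes, whose enzymes act on small halogenated compounds among others, had differences on both sides of 0, and none passed. They are 4 neighbours on chromosome 10. Gstt2 ran from 93.7 over a median of 101 to 113 in WT and from 69.4 over 81.4 to 97.1 in K289R. K289R 1 was the only K289R array inside the WT range. The log2 difference was -0.32 (95% interval -0.49 to -0.14, adjusted p = 0.109). Without K289R 1, the highest K289R array, it was -0.37 and passed (adjusted p = 0.0459). Leaving out that array widens the difference by construction, so the pass is no separate evidence. K289R 1 had an acinar sum of 4232 and K289R 3 one of 6577, and their part was not tested. Without K289R 3 the adjusted p was 0.170, and without K289R 1 and 3 it was 0.0726. At the other end of the 4 genes, Gstt3 ran from 194 over 279 to 296 in WT and from 222 over 331 to 400 in K289R, a difference of 0.33 (adjusted p = 0.344). In K289R 5 of 6 arrays lay above the highest WT array, and K289R 2, at 222, lay below all WT arrays but WT 3. Without all 4 arrays that stood apart the Gstt3 difference was 0.19. Gstt1 had a difference of 0.14 (adjusted p = 0.530), which was 0.073 without WT 1 and 3, and Gstt4 was dim in both groups (11.8 ± 1.62 and 11.2 ± 0.94, n = 6 each).

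The kappa, alpha and zeta genes with a row of their own had positive differences with all arrays, and none passed. The 4 alpha rows annotated to several genes, described further below, had negative differences of -0.42 to -0.38. Gstk1, a peroxisomal and mitochondrial transferase, ran from 1144 over 1290 to 1473 in WT and from 1437 over 1571 to 1716 in K289R. Only K289R 4 and K289R 1, at 1437 and 1466, lay below the highest WT arrays. The log2 difference was 0.27 (95% interval 0.10 to 0.43, adjusted p = 0.170). Gsta3, an alpha-class transferase that detoxifies aflatoxin epoxide in mice, ran from 1985 over 2477 to 2812 in WT and from 2692 over 2850 to 3068 in K289R, with 4 of 6 K289R arrays above every WT array. Its difference was 0.22 (adjusted p = 0.271). WT 3 was the lowest array for both genes, and without WT 1 and 3 the differences were 0.22 for Gstk1 and 0.13 for Gsta3. Gstz1, which isomerises maleylacetoacetate in tyrosine breakdown, differed by 0.21 (adjusted p = 0.410), and by 0.13 without WT 3, its lowest array at 783. Gsta4, which conjugates lipid peroxidation products, differed by 0.18 with all arrays (adjusted p = 0.668) and by -0.023 without WT 1 and 3. Of the omega genes, Gsto1 had a difference of -0.0033 (95% interval -0.18 to 0.17), and Gsto2 was dim.

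Gstm3 of the mu class had the largest residual SD of the 31 brighter genes, 0.49 on the log2 scale. The mu genes are 7 neighbours on chromosome 3, in the order Gstm5, Gstm7, Gstm6, Gstm3, Gstm2, Gstm1 and Gstm4. Gstm3 measured 413 on WT 1 and 428 on WT 3, but 802 to 1092 on the other WT arrays and 548 to 923 in K289R. The K289R arrays thus lay above the low WT arrays and overlapped with the high ones. A second Gstm3 probe set gave 501 on each of WT 1 and WT 3 and 737 to 1080 on the other 4. For Gstm3 the SD of log2 values was 0.64 in WT and 0.26 in K289R, whereas for Gstm1 it was 0.15 and 0.09.

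For all 7 mu genes, WT 1 and WT 3 were the 2 lowest of the 6 WT arrays. Among all genes with a mean log2 intensity of at least 5, that pair was lowest for 9.63%. The 7 genes are neighbours that may share probe signal, so they are not separate evidence. The mean over the mu genes lay 0.37 below the WT mean on WT 1 and 0.45 below it on WT 3 on the log2 scale, and 0.02 to 0.33 above it on the other WT arrays. These are the arrays with the high acute phase means of 9.46 and 9.68, and WT 1 also had the highest muscle sum. The part of either in the result was not tested. K289R 4, with the highest acute phase mean of its group (8.46), had a mu mean 0.12 above the WT mean. With all arrays the log2 differences of the mu genes ran from -0.06 (Gstm3) to 0.28 (Gstm6), with adjusted p from 0.437 to 0.991. Without WT 1 and 3, Gstm3 had -0.46 (adjusted p = 0.216), Gstm4 -0.15, Gstm2 -0.081, Gstm1 -0.083, Gstm5 -0.0014, Gstm6 0.05 and Gstm7 0.081, all with no call. Leaving out WT 3 alone moved Gstm6 from 0.28 to 0.15. As WT 1 and WT 3 were the lowest WT arrays for every mu gene, leaving them out lowers the differences by construction. Gstm5, the mu class gene known from brain and testis, had 43.2 ± 6.58 and 46.9 ± 9.71 (SD, n = 6 each).

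**Figure D3:**
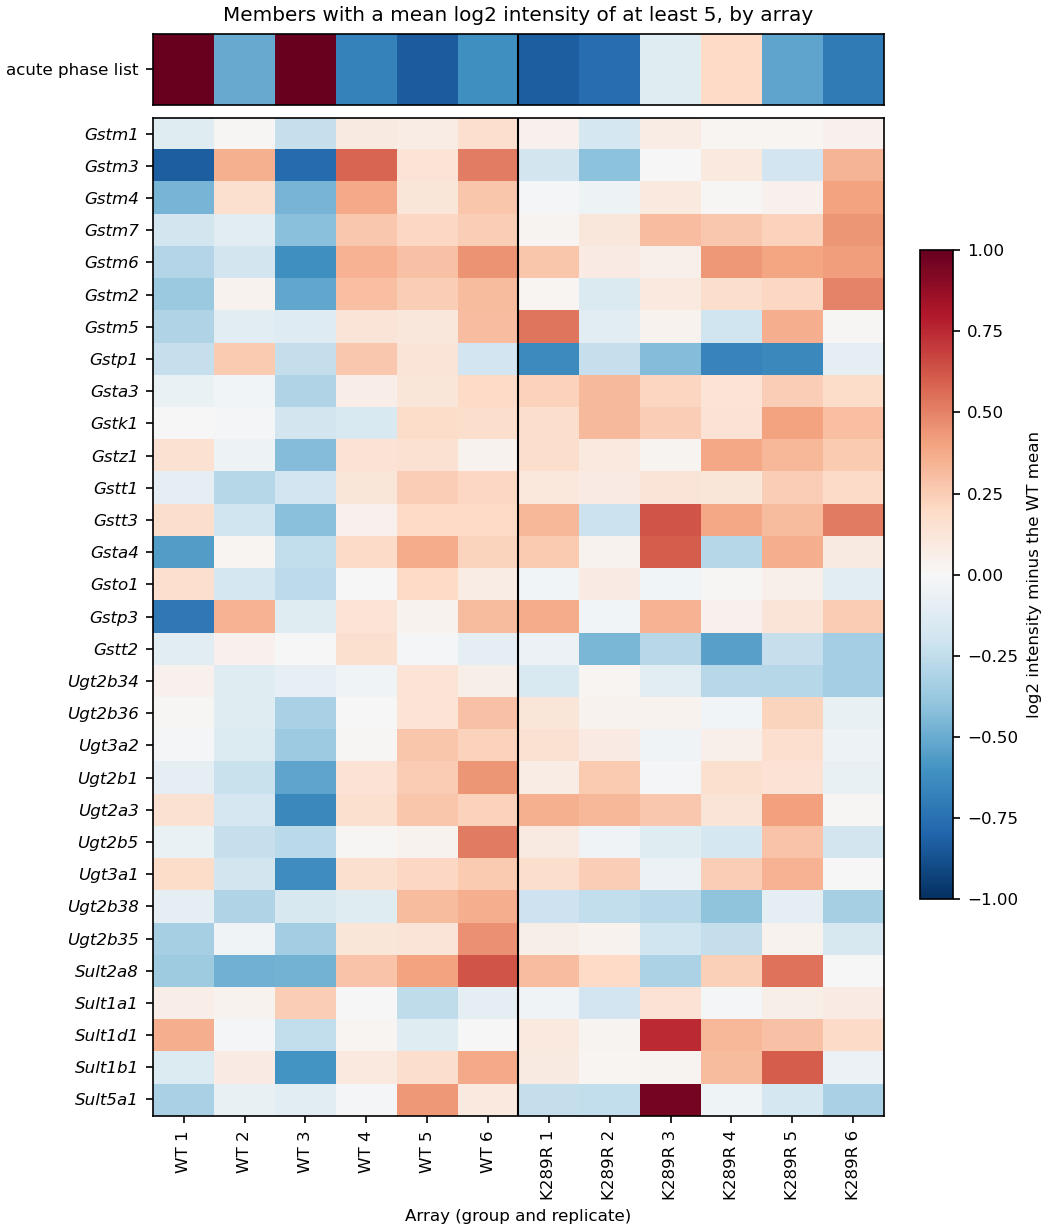
Colour map of log2 intensity minus the WT mean for the 31 genes with a mean log2 intensity of at least 5 (rows) on the 12 arrays (columns), with the mean of the acute phase list above on the same scale; colours end at 1 and -1, and the list lies beyond 1 on WT 1 and WT 3. The 7 mu genes at the top are low on WT 1 and WT 3, most Ugt genes are low on WT 2 and WT 3, and Gstp1 and Gstt2 are low across most K289R arrays.

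The 250 bases before the starts of Gsta3 (chr1:21240335-21240584) and Gstm5 (chr3:107895604-107895853), both on the plus strand (RefSeq, GRCm38.p6), are shown because they hold the core of the antioxidant response element, the site at which NRF2 acts on many Gst genes. Capitals mark the match to TGACNNNGC.
Gsta3: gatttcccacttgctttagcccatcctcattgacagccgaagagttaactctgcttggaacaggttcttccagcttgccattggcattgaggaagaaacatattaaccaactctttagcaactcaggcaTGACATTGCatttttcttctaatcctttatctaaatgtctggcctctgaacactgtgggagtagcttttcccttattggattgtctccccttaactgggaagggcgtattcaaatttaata
Gstm5: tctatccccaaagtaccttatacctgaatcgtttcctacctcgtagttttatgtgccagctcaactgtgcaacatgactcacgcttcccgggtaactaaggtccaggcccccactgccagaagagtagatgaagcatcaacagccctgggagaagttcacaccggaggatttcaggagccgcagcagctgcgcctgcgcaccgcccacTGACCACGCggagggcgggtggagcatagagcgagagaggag
In windows of 300 bases around the starts (250 before and 50 after), TGACNNNGC on either strand was found in 3 of 53 windows of the conjugation genes (5.66%), those of Gsta3, Gstm5 and Gstm7, and in 12.4% of all 32851 windows. CAAGGTCA, the extended motif that LRH-1 binds as a monomer, was found on either strand in 0 of the 53 windows and in 1.56% of all windows. The 53 windows belong to 42 of the 46 genes. A match describes the letters and is not a measured site, and sites outside the windows were not searched. Related forms of either motif were not searched, so a window without a match can still hold one.

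Ugt genes of the Ugt2 cluster, 8 neighbours on chromosome 5, included the 3 Ugt genes at an unadjusted p under 0.05. All 3 were lower in K289R, beside 5.61% of all genes. Of the 7 brighter genes of the cluster, 3 had a positive difference and 4 a negative one. Ugt2b enzymes glucuronidate steroids, bile acids and many drugs. Ugt2b38 ran from 320 over a median of 365 to 505 in WT and from 298 over 329 to 369 in K289R. The 2 arrays WT 5 and WT 6, at 491 and 505, stood above all others, and the remaining WT arrays overlapped with K289R. The log2 difference was -0.26 (adjusted p = 0.348). Ugt2b34 ran from 2020 over 2209 to 2426 in WT and from 1742 over 1898 to 2232 in K289R, a difference of -0.19 (95% interval -0.35 to -0.03, adjusted p = 0.316). Ugt2b37 also had a lower mean, 22.5 ± 2.20 against 27.1 ± 3.69 (SD, n = 6 each), but both means lay below the highest array median and 29.9 and 31.8 on WT 5 and WT 6 above it.

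The other Ugt genes had differences on both sides of 0. Ugt2a3, an enzyme of liver and gut that accepts bile acids, had the highest, 0.25 (adjusted p = 0.470), followed by Ugt3a1 with 0.16 (adjusted p = 0.635) and Ugt2b1 with 0.09 (adjusted p = 0.800). Ugt3a1 and its neighbour Ugt3a2 use other UDP sugars than glucuronic acid. Ugt2b36 and Ugt3a2 had differences of 0.05 (95% interval -0.14 to 0.25) and 0.06 (-0.14 to 0.26), and Ugt2b35 and Ugt2b5 -0.08 and -0.025. Leaving out WT 3 alone moved Ugt2a3 to 0.12, Ugt3a1 to 0.038 and Ugt2b1 to -0.011. Without WT 1 and 3, Ugt2a3 had 0.13, Ugt3a1 0.052, Ugt2b1 -0.061, Ugt2b36 -0.025, Ugt3a2 -0.033, Ugt2b35 -0.25 and Ugt2b5 -0.11. For 8 of the 9 brighter Ugt genes the lowest pair of WT arrays was WT 2 and WT 3, which held for 12.8% of all genes of that brightness. Ugt2a3, for example, measured 560 on WT 3 and 775 on WT 2, and 969 to 1057 on the other WT arrays. The acute phase mean was 9.68 on WT 3, the highest of the 12 arrays, and 7.76 on WT 2, and its part in the result was not tested. In K289R the spread was narrower for 8 of the 9, with a median SD of log2 values of 0.13 against 0.28 in WT. It was also narrower for 55.2% of all genes of that brightness and for 81.8% of the brighter cytochrome P450 genes of families 1 to 3. Without WT 1 and 3 the Ugt count was 8 of 9 as well, with a WT median of 0.20. The shares were then 43.1% of all such genes and 63.6% of those P450 genes.

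Of the 5 brighter Sult genes Sult1d1, which sulfates catecholamines and eicosanoids in mice, ran from 324 over a median of 381 to 494 in WT and from 392 over 454 to 644 in K289R. Its highest array was K289R 3, at 644, and the next highest WT 1, at 494. The log2 difference was 0.28 (95% interval 0.04 to 0.53, adjusted p = 0.348). Those arrays also had the highest muscle sums, and K289R 3 the highest acinar sum, whose part was not tested. Without WT 1 and 3 the difference was 0.31, and without K289R 1 and 3 it was 0.21. Sult1c2, named after its value was seen, had the highest estimate of all 46 genes, 0.41 (adjusted p = 0.305). Its WT mean of 28.4 ± 7.04 lay at the array medians and its K289R mean was 37.4 ± 7.08 (SD, n = 6 each). The estimate was 0.21 without WT 1 and 3.

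The remaining Sult genes differed little or varied widely. Sult1a1, the phenol sulfotransferase, had means of 566.6 ± 64.9 (WT) and 567.3 ± 44.8 (K289R; SD, n = 6 each), a difference of 0.0059 (95% interval -0.17 to 0.18). Sult2a8, a hepatic sulfotransferase of bile acids, lay between 613 and 1318 in WT, with a median of 854, and between 685 and 1243 in K289R, with a median of 994. WT 1, 2 and 3 lay between 613 and 668 and the other WT arrays between 1040 and 1318. Its log2 difference was 0.16, with a wide 95% interval of -0.24 to 0.57. It was 0.067 without WT 2, 0.068 without WT 3 and -0.045 without WT 1 and 3. Sult1b1, which sulfates thyroid hormone and phenols, differed by 0.17 (adjusted p = 0.657), by 0.049 without WT 3 and by -0.015 without WT 1 and 3. Sult5a1 measured 98.9 on K289R 3 and 40.7 to 49.5 on the other K289R arrays. With that array its difference was -0.01, and without K289R 1 and 3 it was -0.20 (adjusted p = 0.653).

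**Figure D4:**
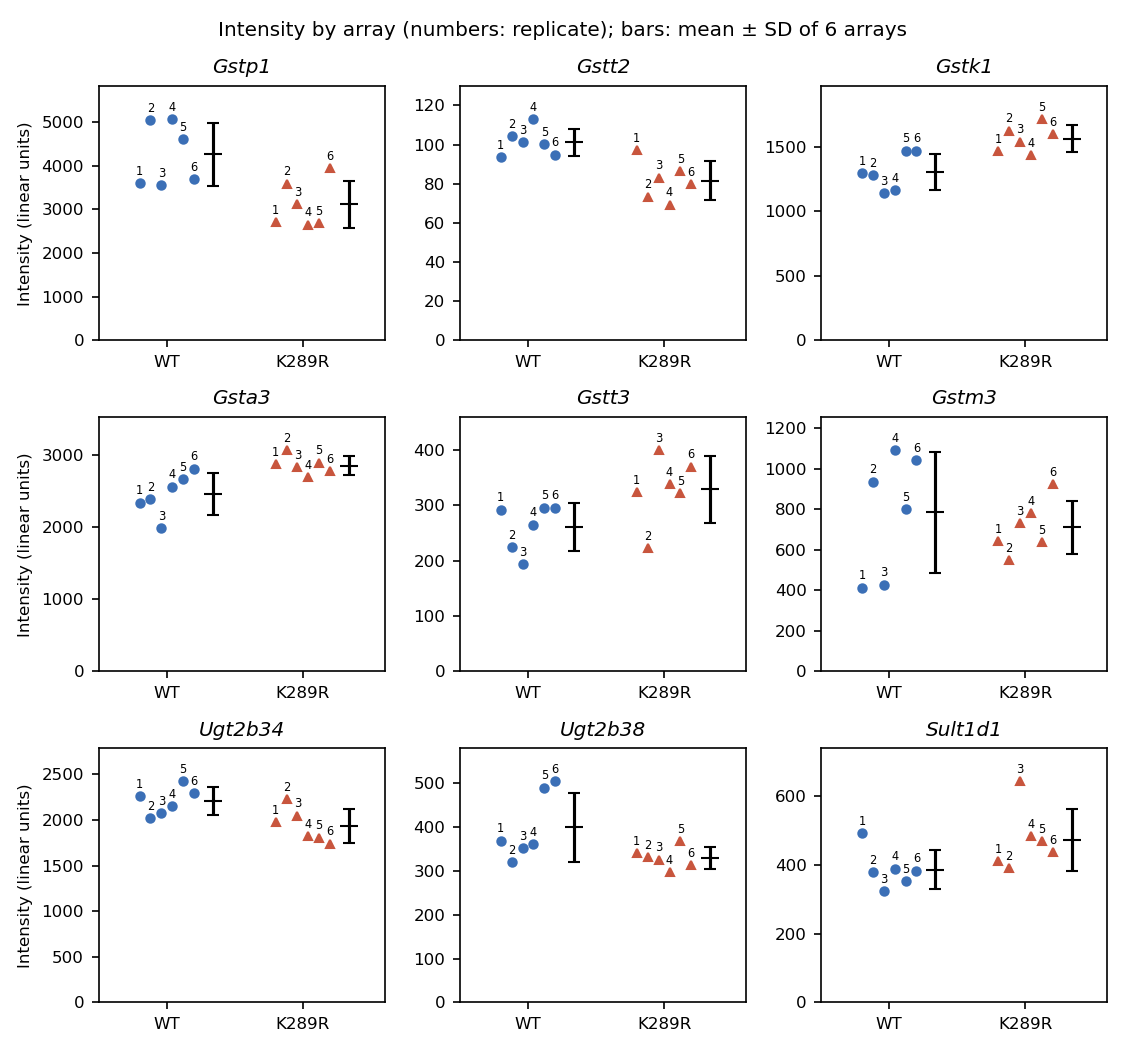
Intensity (linear units, axes from 0) on each array for 9 genes, WT as circles and K289R as triangles, with the replicate number above each point and the mean ± SD of 6 arrays beside it. The groups overlap in every panel; Gstm3 is low on WT 1 and WT 3 and Sult1d1 is high on K289R 3.

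Over the 31 brighter genes the direction of the differences turned when WT 1 and 3 were left out. With all arrays 22 had a positive difference and 9 a negative one, with a median log2 difference of 0.11, beside 0.02 over all 10371 genes of that brightness, of which 56.2% were positive. Without WT 1 and 3, 11 were positive and 20 negative, with a median of -0.025, whereas 57.9% of all such genes were positive. At an unadjusted p under 0.05, 2 of the 46 genes were then higher and 7 lower, beside 10.7% of all genes in either direction, and 0 were called, beside 88 of all genes. Without K289R 1 and 3 as well, 13 were positive and 18 negative. Leaving out WT 3 alone gave 17 positive and 14 negative, and leaving out WT 1 alone gave 21 and 10. The split moved the other way without WT 6, to 26 and 5 with a median of 0.18. It was 23 and 8 without WT 2, WT 4 or WT 5. WT 1 and WT 3 had the lowest means over these genes of all arrays, 0.14 and 0.32 below the WT mean on the log2 scale. Leaving them out therefore lowers the differences by construction, and the turn is no separate evidence of direction. With each array at the same median the split was 25 and 6, where 67.5% of all such genes were positive, and after quantile normalization it was 21 and 10, where 50.0% were. The WT arrays were also more spread: the SD of log2 values was larger in WT than in K289R for 25 of the 31 (80.6%), beside 55.2% of all genes of that brightness. It was larger for 16 of the 31 (51.6%), beside 43.1%, once WT 1 and 3 were left out. The median SD within groups was 0.24 for the 31 genes and 0.14 for all 10371.

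A further 12 rows of the table were annotated to several genes of these families and are not counted among the 46, because no gene can be named from them. They are the rows of the Ugt1a genes, of Gsta1 and Gsta2, of Gstp2 with Gstp1, and of several Sult2a, Ugt2a and Ugt3a genes. In a fit over all 35556 rows 0 of the 12 were called, and 6 had an unadjusted p under 0.05, all of them lower in K289R. Those were both pi rows, with log2 differences of -0.54 and -0.53 (adjusted p from 0.123 to 0.154), and all 4 alpha rows, from -0.42 to -0.38 (adjusted p = 0.386 to 0.434). The alpha rows share their annotated genes with each other, as the pi rows do, so they are not separate evidence. The alpha rows thus had the opposite sign to Gsta3 and Gsta4. The 4 Ugt rows had differences of -0.055 to 0.071, and both Sult rows -0.17 and 0.074.

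The enzymes and carriers that serve these reactions were also compared, as lists drawn up by function. Of 12 genes of glutathione synthesis and recycling 0 were called, with a median log2 difference of -0.02. The selenoenzyme Gpx4, which reduces lipid hydroperoxides, had 345.1 to 414.6 in WT and 418.3 to 508.3 in K289R. Its groups did not overlap, but the log2 difference of 0.28 did not pass (adjusted p = 0.0906), and the transferase gene Ggt6 had -0.14 (adjusted p = 0.496). Of 12 other glutathione enzymes, 0 were called. The microsomal transferase gene Mgst1 had 0.12 (adjusted p = 0.509) and the leukotriene C synthase gene Ltc4s lay at the array medians in both groups (27.9 ± 4.09 and 26.3 ± 1.09, n = 6 each). Of 6 genes of glucuronide metabolism, 5 that supply UDP-glucuronic acid and the glucuronidase gene Gusb, 0 were called (median 0.04), and the UDP-glucose pyrophosphorylase gene Ugp2 had 0.24 (adjusted p = 0.309) and the carrier gene Slc35d1 -0.14 (adjusted p = 0.470). Of 7 genes of PAPS supply and sulfate handling 0 were called (median 0.14), and the PAPS synthase gene Papss2 had 0.39 (adjusted p = 0.383) and the sulfate carrier gene Slc26a1 0.23 (adjusted p = 0.399). WT 3 was the lowest array for both carrier and synthase, at 299.3 and 436.2.

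Among the regulators, 0 of 16 xenobiotic sensors and liver factors were called. Their median was 0.11, beside 0.02 over all genes with a mean log2 of at least 5. At an unadjusted p under 0.05 there were 5, all higher, beside 6.42% of all genes. All 16 had a mean log2 of at least 5, and 16.1% of such genes, fitted alone, were under 0.05 in either direction. NRF2 itself (Nfe2l2) had a log2 difference of 0.33 (adjusted p = 0.111) and PXR (Nr1i2) 0.38 (adjusted p = 0.146). WT 3 was the lowest of the 12 arrays for both, at 285.0 and 159.8, and its part was not tested. Of 13 NRF2 target genes other than Gst 0 were called, and 1 was higher and 2 lower at an unadjusted p under 0.05, beside 6.42% and 5.61% of all genes. The quinone reductase gene Nqo1 had 0.38 (adjusted p = 0.175), with a WT mean of 24.9 that lay under the array medians, and heme oxygenase (Hmox1) -0.38 (adjusted p = 0.312). Of 11 carriers, 8 ABC transporters and the uptake carriers Slco1a1, Slco1a4 and Slco1b2, 0 were called (median 0.10). The organic anion pump Abcc2 of the bile canaliculus had 0.32 (adjusted p = 0.133) and its sinusoidal relative Abcc3 0.35 (adjusted p = 0.176). WT 3 was again the lowest array for both, at 841.1 and 416.1.

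Of 15 other conjugating and hydrolysing enzymes 1 was called, beside 0.572% of all genes. As3mt, which methylates arsenic with S-adenosylmethionine, rose 1.63-fold. Its intensity lay between 136.4 and 189.4 in WT and between 227.4 and 283.9 in K289R, so the groups did not overlap (log2 difference 0.71 ± 0.09 SE, adjusted p = 0.000441). It stayed called without WT 1 and 3 and K289R 1 and 3 (adjusted p = 0.0103). The median of that list was 0.06.

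Sex-biased liver genes outside the 3 families were compared because Gstp1 and several Sult genes belong to that class. Of 8 female-biased genes 3 were called higher and 0 lower, beside 0.481% and 0.0903% of all genes. They are Cyp17a1, Cyp2b9 and Acot3. Cyp2b9 had a WT mean of 19.9, under the array medians, and K289R 2 (34.4) and K289R 6 (25.6) lay within its WT range, which reached 35.1. Acot3 overlapped too, with 40.4 on K289R 6 and 40.7 on WT 6. The median of the 8 was 0.19, and 3 of them had a mean log2 under 5. Of 9 male-biased genes 0 were called, with a median of -0.22. At an unadjusted p under 0.05, 2 were higher and 3 lower, beside 6.42% and 5.61% of all genes. All 9 had a mean log2 of at least 5, and 16.1% of such genes, fitted alone, were under 0.05 in either direction. The complement gene C6 had -0.32 (adjusted p = 0.155) and Cyp4a12a 0.32 (adjusted p = 0.205). The female-biased Sult3a1 stayed dim in both groups, as given above, and Gstp1 had the value of -0.45. For comparison, 54 cytochrome P450 genes of families 1 to 3, which act before conjugation, had 2 genes called higher, Cyp2b9 among them, and 0 lower. Their median was -0.0008. Among their 33 brighter genes the WT spread was larger for 27 (81.8%) with all arrays and for 21 (63.6%) without WT 1 and 3. Whether these families differ from each other was not tested.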

How the data were processed

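Liver RNA of 12 mice was amplified, labelled with biotin and hybridised to Affymetrix gene arrays, per the labels' protocols. Deposited were summarized probe-set intensities on a linear scale, as judged from their range. The authors made them with Affymetrix Expression Console, per the submitters' processing notes; its version and the steps of background correction and normalization are not recorded in the labels, protocols or notes at hand. Of 35556 rows 21789 carried 1 gene symbol in the platform annotation, 1621 several and 12146 were not listed. The brightest probe set by mean log2 stood for each of 19938 genes. All 46 members matched the RefSeq table by gene ID.

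Groups came from the sample titles, since the genotype entry of WT 4 holds stray text. Log2 was taken without an offset, and K289R was compared with WT by limma 3.58.1 (R 4.3.3, lmFit and eBayes, two-sided, no covariates), called at a Benjamini-Hochberg adjusted p under 0.05 over all 19938 genes. Each p refers to that fit where no other setting is given. Means ± SD are those of linear intensities, and log2 differences are of means of log2 values. The number of arrays limits the precision. The fit was tested on simulated data. The labels give no scan date, so batches were not analysed here.

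The members and lists were chosen with earlier results of these data known. Named were members with the 3 highest and 3 lowest differences, the 3 brightest and the 3 most variable of each family among those with a mean log2 of at least 5 (brightest: all), known sex-biased members and members with an array far from its group; the rest are given for completeness. From each other list called genes were named, otherwise the 2 with the smallest p. Other settings were equal array medians, quantile normalization, genes under a mean log2 of 5 left out, probe sets of a gene averaged, an offset of 16, a trended robust variance, array weights, a replicate block and each array left out. Leaving out WT 1 and 3, K289R 1 and 3, or all 4 was added after the data were examined. Figures were drawn with matplotlib 3.10.9, and windows were aligned with Biopython 1.88.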

Additional observations from a re-analysis of the deposited data

Results flagged for a closer look

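Of 92 groups of 6 arrays (46 genes, 2 groups each), 9 had an array whose gap to the nearest other was more than Dixon's 95% critical share of the group's range. Chance flags about 1 in 20 groups. Sult5a1 measured 98.9 on K289R 3, against 40.7 to 49.5 on the other K289R arrays. Gstm1 measured 2275 on K289R 2, against 2609 to 2707, and Gstt3 222.3 on that array, against 321.8 to 399.8. Gstm4 measured 729 on K289R 6, against 533.5 to 589.4. Gstz1 measured 782.6 on WT 3, while the rest of WT lay between 1020 and 1175. The other 4 lay in dim genes, namely Gstt4 on WT 6 (8.76), Sult2a3 on WT 1 (3.73), Sult2a6 on K289R 1 (3.57) and Sult6b2 on WT 2 (6.36).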

How the results depend on the processing

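Of 552 values of 24 named members under 23 other settings, 504 kept their direction and their side of the threshold, 47 changed sign and 1 passed the threshold. None of the 24 was called in the main fit, and the largest value that changed sign was 0.15 in size. Members called higher stayed at 0 in all 23 settings, and members called lower were 0 to 1 when 1 array was left out (Gstt2 without K289R 1) and 0 in the rest. Over all genes 114 were called, 160 with dim genes left out, 81 to 159 (without K289R 6) with 1 array left out, 111 to 142 under the other planned settings, 88 without WT 1 and 3, 75 when K289R 1 and 3 were left out and 65 with those 2 and WT 1 and 3 left out. The replicate block gave 111. The numbers name different mice, and same-numbered deviations correlated from -0.23 to 0.23, with 1 of 6 arrays closest to its own number. Signs changed with array weights for Gstm1 (-0.030) and Gstm4 (-0.0050), with equal medians for Sult5a1 (0.026), and with quantile normalization for Sult1a1 (-0.024). Without K289R 1 and 3 they changed for Gstm1 (-0.024) and Sult1a1 (-0.018). Without WT 1 and 3 they changed for Gsta4 (-0.023), Gstm1 (-0.083), Gstm4 (-0.15), Sult1b1 (-0.015), Sult2a8 (-0.045), Ugt2b1 (-0.061), Ugt2b36 (-0.025) and Ugt3a2 (-0.033). Without all 4 they changed for Gsta4 (-0.15), Gstm1 (-0.11), Gstm4 (-0.13), Ugt2b1 (-0.031), Ugt2b36 (-0.040) and Ugt3a2 (-0.031). Leaving out 1 array gave ranges across 0 for Gstm1 (-0.042 to 0.040), Gstm3 (-0.22 to 0.058), Gstm4 (-0.012 to 0.16), Sult1a1 (-0.045 to 0.054), Sult5a1 (-0.20 to 0.075), Ugt2b1 (-0.011 to 0.18), Ugt2b35 (-0.15 to 0.014), Ugt2b36 (-0.013 to 0.11) and Ugt3a2 (-0.010 to 0.12). The cause was not tested. Signal near background limits the 15 dim members, and paralogs may share probe signal.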

Other observations

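As3mt, the called enzyme beside the 3 families, has called neighbours, a pattern seen after the values were known. In RefSeq order on chromosome 19, Cyp17a1, Borcs7 and As3mt follow each other. Cyp17a1, a steroid hydroxylase and lyase, measured 144.9 ± 37.9 in WT and 620.4 ± 201 in K289R (adjusted p = 9.33e-06). Borcs7, a subunit of a complex that positions lysosomes, measured 41.9 ± 4.18 and 59.7 ± 5.90 (SD, n = 6 each), a rise of 1.42-fold (adjusted p = 0.00536). For each of the 3 genes the lowest K289R array exceeded the highest WT array, and each was called in all 23 other settings. The genes on either side were not called: Wbp1l had a log2 difference of 0.16 (adjusted p = 0.518) and Cnnm2 0.14 (adjusted p = 0.513).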
